A study of Rattus norvegicus with 47 samples.

Results

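Fc receptors bind the constant part of antibodies and pass the presence of an immune complex on to leukocytes. They were followed here as blood mRNA in spontaneously hypertensive rats (SHR), all males aged 16 weeks, with a transient stroke made by occlusion of the middle cerebral artery (MCA). The 6 genes were Fcgr1a, Fcgr2a, Fcgr2b, Fcgr3a, Fcer1g and Fcgrt. Each was found on the RaGene 1.0 ST array by its gene symbol, and where several probe sets carried a symbol the one with the highest mean over the time points was taken. A probe set is the group of array probes summarized to 1 value per gene or locus. This choice gave 5 probe sets of 27596, because Fcgr2a and Fcgr2b both led to 1 probe set that carries both symbols. In all, 7 probe sets carried a member symbol, and 6 of them carried 1 symbol alone.

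The samples were 47 bloods of 8 rats, with 8 arrays at 0, 1, 2, 3 and 24 h post MCA occlusion and 7 at 6 h. The 0 h blood was taken before anesthesia and surgery and is the control. The tail vein bloods of 0 to 6 h were drawn into heparin, and the RNA came from whole blood cell pellets. The thread was withdrawn under renewed anesthesia between the 1 h and 2 h bloods, so that all bloods from 2 h on followed reperfusion. The bloods up to 6 h came from the tail vein and that of 24 h from the heart after an anesthetic overdose, so that time and site of bleeding cannot be told apart at 24 h. There was no sham group, and stroke, surgery and anesthesia cannot be told apart. Whole blood is a mixture, in which fewer cells of a type and less RNA per cell cannot be told apart.

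Most Fc gamma receptors are activating: they signal through an immunoreceptor tyrosine-based activation motif (ITAM), which in rodents is carried mainly by the common gamma chain, the product of Fcer1g. Src family kinases and Syk act on this motif, and phagocytosis, the oxidative burst and cytokine release follow. The product of Fcgr2b carries an inhibitory motif instead and recruits the lipid phosphatase SHIP, the product of Inpp5d. FcRn, encoded by Fcgrt, pairs with beta 2 microglobulin and rescues IgG from breakdown within cells, and belongs to neither class. In the rat annotation of RefSeq, Fcgr2a has the synonyms fc-gamma RIII, fcRIII, Fcgr3 and Fcgr3a, and Fcgr3a has the synonyms CD16-2 and Fcgr4. The symbol Fcgr3a is thus also a synonym of Fcgr2a, so these symbols alone do not fully separate the 2 genes. The rat symbols also do not match the human receptors of the same name one to one.

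Over the first 6 h the family divided. The high affinity receptor gene Fcgr1a and the activating receptor gene Fcgr2a rose, the activating receptor gene Fcgr3a fell, and the inhibitory receptor gene Fcgr2b rose. The probe sets of Fcer1g and Fcgrt did not pass the test at any time. Levels are the authors' mean log2 signals with the authors' deposited SD, and a change is the difference of 2 such means on the log2 scale. Changes were tested with a moderated model (limma) from the means, SDs and array numbers, and a change was called at a Benjamini-Hochberg adjusted p below 0.05 over all probe sets. The replicates are rats sampled again at each time, which the model takes as independent arrays.

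**Figure D1:**
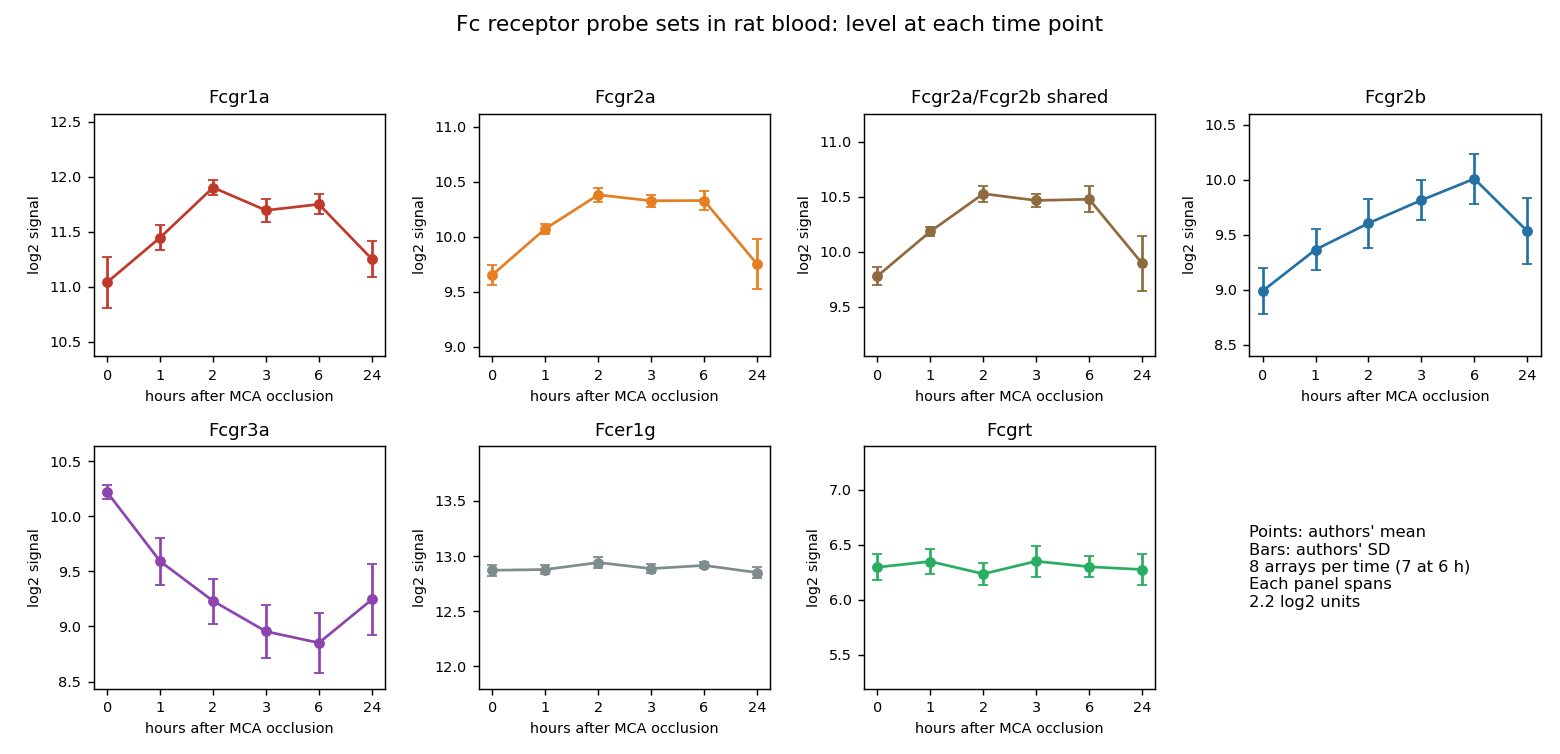
Level of each Fc receptor probe set at each time point. Points are the authors' mean log2 signals, bars the authors' SDs over 8 arrays (7 at 6 h), the time axis is not to scale, and every panel spans the same log2 range. Fcgr3a is highest at 0 h, Fcgr1a and Fcgr2a are highest at 2 h, Fcgr2b at 6 h, and the Fcer1g and Fcgrt means stay within 0.09 and 0.11 log2 units.

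Of the 5 probe sets of the rule, 2 were higher and 1 lower than at 0 h at each of 1, 2, 3 and 6 h, and 1 was higher and 1 lower at 24 h. Taking each gene by the probe set that carries its symbol alone, 3 of 6 were higher and 1 lower at 1 to 6 h, and 2 were higher and 1 lower at 24 h. Such changes were common in these bloods. Of all 27596 probe sets, 21.7% rose and 15.4% fell by 1 h, against 21.7% and 18.6% by 2 h. The shares were 27.3% up and 19.2% down by 3 h, 22.5% up and 19.3% down by 6 h, and 17.4% up and 13.9% down by 24 h. The median change of all probe sets lay between 0.04 and 0.07 at the 5 later times. With so few members, their counts are a description and were not compared with these shares.

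Fcgr1a encodes the high affinity IgG receptor of monocytes, macrophages and stimulated neutrophils. Its probe set (10825153) lies on chromosome 2, minus strand, rn5 217916296 to 217925223. The authors' means were 11.04 at 0 h, then 11.45, 11.90, 11.69 and 11.75 over the next 4 time points and 11.25 at 24 h, with SDs of 0.23, 0.12, 0.07, 0.10, 0.09 and 0.16. The level was highest at 2 h, while 3 and 6 h differed by less than the larger SD, as did 24 and 0 h. The rise at 2 h was 0.86 ± 0.07 (SE), or 1.82-fold with a 95% interval of 1.65 to 2.00 (limma adjusted p = 4.74e-14). At 24 h 0.21 was left of it, 24.4% of the largest change (adjusted p = 0.0209). That last call was lost when each time point was centred on its median (change 0.17, adjusted p = 0.0710) and when the 0 and 24 h samples alone were fitted (adjusted p = 0.0940).

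Fcgr2a, a low affinity activating receptor, has its own probe set (10769788) on chromosome 13, minus strand, rn5 95665038 to 95678254. The means were 9.65 at 0 h, then 10.07, 10.38, 10.33 and 10.33 over the next 4 time points and 9.75 at 24 h, with SDs of 0.09, 0.05, 0.06, 0.06, 0.08 and 0.22. From 2 to 6 h the level stayed on a plateau whose means differed by less than the SDs. The rise at 2 h was 0.73 ± 0.06, or 1.65-fold with a 95% interval of 1.53 to 1.80 (limma adjusted p = 2.33e-14). At 24 h the change was 0.10 with an interval of -0.02 to 0.22, which was not called (adjusted p = 0.200), and the SD of that time point was the widest of the 6. When the mean columns were quantile normalized, the 24 h change was 0.17 and was called (adjusted p = 0.0303).

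The probe set that carries both symbols (10769797), chosen by the rule for Fcgr2a and Fcgr2b alike, lies on the same strand at rn5 95687155 to 95715921. Its mean ran from 9.78 (SD 0.08) before occlusion over 10.19 (0.04), 10.53 (0.07), 10.47 (0.06) and 10.48 (0.12) at 1, 2, 3 and 6 h to 9.89 (0.25) at 24 h. It thus traced the course of Fcgr2a: its changes from 0 h differed by at most 0.022 from those of the Fcgr2a probe set at all 5 times, and by up to 0.43 from those of the Fcgr2b probe set. On rn5 8900 bases separate it from the Fcgr2a set and 1704133 bases from the Fcgr2b set. Of its 5 listed transcripts it shares 1 with the Fcgr2b set and 0 with the Fcgr2a set, so the annotation does not settle which mRNA it reads. For this reason the activating and the inhibitory receptor are compared below by the probe sets that carry 1 symbol alone.

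RefSeq places Fcgr2b, Fcgr3a, Fcgr2a, the further gene Fcgr2al1 and the pseudogene Fcgr2a-ps1 in this order on chromosome 13 of GRCr8, with Fcer1g beyond them. Copies this close in sequence may share probes, so the values of Fcgr2a, Fcgr2b and Fcgr3a are each uncertain in how far they read 1 gene.

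Fcgr2b, the inhibitory receptor of B cells and myeloid cells, rose up to 6 h. Its own probe set (10769771) lies on chromosome 13, minus strand, rn5 93968425 to 93983021. The means were 8.99 at 0 h, then 9.36, 9.60, 9.81 and 10.01 over the next 4 time points and 9.53 at 24 h, with SDs of 0.21, 0.19, 0.22, 0.18, 0.23 and 0.30. Every later mean was above that of 0 h by more than the larger SD, whereas each pair of neighbours in the order 6, 3, 2, 24 and 1 h differed by less than the larger SD. The rise at 6 h was 1.02 ± 0.11, or 2.03-fold with a 95% interval of 1.74 to 2.37 (limma adjusted p = 1.85e-10). At 24 h the change was still 0.54 with an interval of 0.33 to 0.76 (adjusted p = 1.36e-04), 53.3% of the largest change. With SDs 2 times the deposited ones the 1, 2 and 24 h changes of Fcgr2b were no longer called (adjusted p = 0.445, 0.0651 and 0.283).

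Fcgr3a showed the largest change of the 7 probe sets, and the only falls called against 0 h. Its product is an activating receptor that pairs with the common gamma chain. The probe set (10765497) lies on chromosome 13, plus strand, rn5 94025063 to 94035170. The mean levels were 10.22 at 0 h, then 9.59, 9.23, 8.95 and 8.85 over the next 4 time points and 9.25 at 24 h, with SDs of 0.07, 0.22, 0.20, 0.24, 0.27 and 0.32. All later means were below that of 0 h by more than the larger SD, and those of 3 and 6 h, and of 2 and 24 h, differed by less. The fall at 6 h was -1.37 ± 0.12, or 2.58-fold lower with a 95% interval of -1.60 to -1.14 on the log2 scale (limma adjusted p = 8.64e-14). At 24 h the change was -0.97 (interval -1.20 to -0.75, adjusted p = 6.56e-09), 71.2% of the largest. The SD at 0 h was the smallest of the 6 time points, at 0.07, and that at 24 h the largest, at 0.32.

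Fcgr2a and Fcgr3a are activating genes of 1 chromosome that moved in opposite directions, and the sequence in front of each is shown for this reason. On rn5, unlike GRCr8, the Fcer1g probe set lies between theirs, and the probes themselves were not placed on GRCr8. RefSeq promoter sequences on GRCr8 were given for 3 of the 6 members, Fcgr2a, Fcgr3a and Fcgrt. The first is chr13:85782386-85782635 (plus strand), the 250 bases before the start of Fcgr3a, and the second chr13:85828686-85828935 (minus strand), those before the outer of 2 annotated starts of Fcgr2a. Capitals mark GAGGAA on either strand (GAGGAA or TTCCTC), letters that occur in sites of PU.1, a factor of myeloid cells.
Fcgr3a: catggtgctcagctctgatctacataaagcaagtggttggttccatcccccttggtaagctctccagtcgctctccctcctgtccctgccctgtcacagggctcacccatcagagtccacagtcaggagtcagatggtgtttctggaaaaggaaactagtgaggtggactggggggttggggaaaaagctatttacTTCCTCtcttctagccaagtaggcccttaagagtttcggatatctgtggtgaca
Fcgr2a: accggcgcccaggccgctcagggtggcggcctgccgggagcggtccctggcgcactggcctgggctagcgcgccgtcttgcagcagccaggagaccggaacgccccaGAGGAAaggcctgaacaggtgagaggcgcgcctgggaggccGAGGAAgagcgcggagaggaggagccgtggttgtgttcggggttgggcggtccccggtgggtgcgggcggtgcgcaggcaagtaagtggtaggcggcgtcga
The letters occurred 1 time before Fcgr3a, beginning 54 bases before the start, and 2 times before Fcgr2a, beginning 143 and 102 bases before it. They occurred 2 times before Fcgrt and 0 times before the other start of Fcgr2a. Of 33469 promoters of this length, 23.3% held them. The letters TTCNNNGAA, a form of the STAT site, occurred in 7.7% of these promoters, 0 times before Fcgr3a and Fcgr2a and 1 time before Fcgrt. Such matches describe the sequence, and no binding was measured.

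The changes of Fcer1g, the signalling chain that the activating receptors share, were small and not called. Its probe set (10769825) lies on chromosome 13, minus strand, rn5 94229050 to 94233110. The mean levels were 12.87 at 0 h, then 12.88, 12.94, 12.89 and 12.91 over the next 4 time points and 12.85 at 24 h, with SDs of 0.05, 0.04, 0.05, 0.04, 0.03 and 0.05. The mean over the time points was at the 99.7th percentile of all probe sets, and whether so bright a signal was near saturation was not assessed. Every pair of neighbours in the order of levels differed by less than the larger SD. The largest change was 0.07 at 2 h with a 95% interval of 0.0038 to 0.14 (limma adjusted p = 0.0846). This side of the threshold depends on the setting: the 2 h change was called in an ordinary model without moderation (adjusted p = 0.0100). When the 6 mean columns were quantile normalized, the 2, 3 and 6 h changes were called, at 0.10, 0.10 and 0.14.

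Fcgrt, the transport receptor FcRn, also passed no test. Its probe set (10721667) lies on chromosome 1, minus strand, rn5 102151851 to 102161645, with means of 6.30 (SD 0.12), 6.35 (0.11), 6.24 (0.10), 6.35 (0.14), 6.30 (0.10) and 6.28 (0.14) at 0, 1, 2, 3, 6 and 24 h. All neighbours in the order of levels differed by less than the larger SD. The changes lay between -0.06 and 0.05, with 95% intervals that together span -0.18 to 0.18. Whether this signal stood above the background of the arrays was not assessed. B2m, whose product is the partner chain of FcRn, changed by 0.04, 0.02, -0.03, -0.02 and 0.02 at 1, 2, 3, 6 and 24 h and was not called either (limma adjusted p between 0.499 and 0.747).

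**Figure D2:**
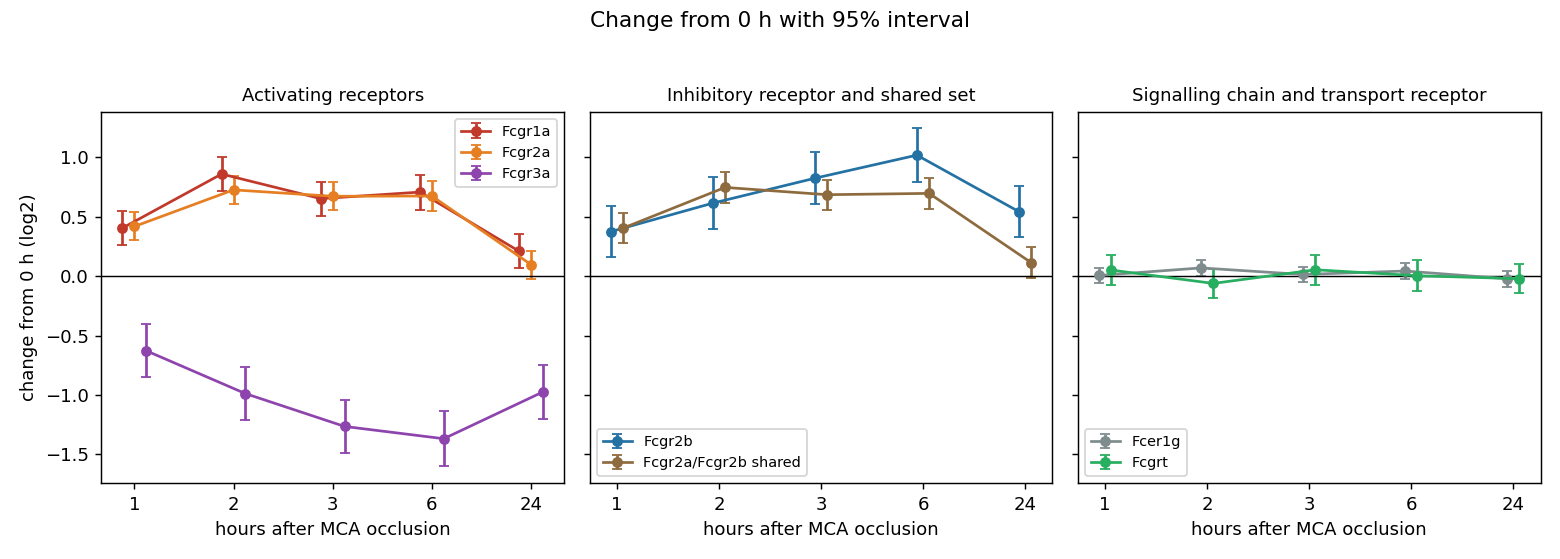
Change of each probe set from 0 h on the log2 scale at 1, 2, 3, 6 and 24 h; points are differences of the authors' means and bars 95% intervals of the moderated model. Fcgr1a and Fcgr2a lie above 0 and Fcgr3a below it up to 6 h, Fcgr2b reaches 1.02 at 6 h, and Fcer1g and Fcgrt lie along the line of no change.

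The activating and inhibitory receptors were then set side by side at each time. At 1 h the changes of Fcgr1a, Fcgr2a and Fcgr2b were 0.41, 0.42 and 0.38, and that of Fcgr3a was -0.63. At 2 h Fcgr2b, at 0.62, was below Fcgr1a at 0.86 and Fcgr2a at 0.73. At 3 h Fcgr2b, at 0.83, was above Fcgr1a at 0.65 and Fcgr2a at 0.67. At 6 h it was further above, with Fcgr2b at 1.02 against 0.71 for Fcgr1a and 0.68 for Fcgr2a, and the 95% interval of Fcgr2b (0.80 to 1.24) still met those of Fcgr1a (0.56 to 0.86) and Fcgr2a (0.55 to 0.80). At 24 h Fcgr2b, with an interval of 0.33 to 0.76, did not meet Fcgr2a, with an interval of -0.02 to 0.22, but still met Fcgr1a, with an interval of 0.07 to 0.35. Against Fcgr3a the change of Fcgr2b was larger by 1.00 at 1 h, by 2.39 at 6 h, and by 1.52 a day after occlusion. These are differences between changes of different probe sets on the same arrays. Their own test needs the single arrays of each rat, which were not matched here, and so it was not run. The activating genes had no common direction, with Fcgr1a and Fcgr2a up, Fcgr3a down and the Fcer1g probe set not called at 1 to 6 h.

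Between neighbouring time points, steps were called from 1 to 2 h and from 6 to 24 h. From 1 to 2 h Fcgr1a rose by a further 0.45, Fcgr2a by 0.31 and the shared set by 0.34, and Fcgr3a fell by 0.36 (limma adjusted p = 0.0320), where 8.78% of all probe sets were called in either direction. In the same step the Fcgr2b value was 0.24 (adjusted p = 0.177). From 2 to 3 h and from 3 to 6 h none of the 7 probe sets was called by limma, and 3.53% and 4.78% of all probe sets were. At an unadjusted p below 0.05, 2 of the 5 rule probe sets passed from 2 to 3 h, Fcgr1a at -0.21 and Fcgr3a at -0.28, and 0 from 3 to 6 h. The share of all probe sets at this unadjusted threshold is not given here, so these 2 counts are a description only. The Fcgr2b values were 0.21 and 0.19 in these steps and that of Fcgr3a was -0.10 in the later one, and the missing calls do not show that these levels stood still. From 6 to 24 h Fcgr1a fell by 0.50, Fcgr2a by 0.58, the shared set by 0.58 and Fcgr2b by 0.48, and Fcgr3a rose by 0.39 (adjusted p = 0.0108), beside 18.9% of all probe sets called. Each of these 5 probe sets thus moved back towards its 0 h level in the step that also changed the bleeding site. With SDs 2 times the deposited ones, 0 of the steps from 1 to 2 h stayed called, and from 6 to 24 h Fcgr2a and the shared set alone did.

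In the F-test over the 6 time points, 3 of the 5 rule probe sets passed at an adjusted p below 0.05, as did 55.5% of all probe sets. The same 3, Fcgr1a, the shared set and Fcgr3a, passed a stricter unadjusted p of 5e-07, as did 13.5% of all probe sets. The study set this cutoff for its own F-test, and the p-values here come from a different model. A pass here is therefore not a pass of the study's own criterion. Fcgr2a and Fcgr2b by their own probe sets passed both thresholds as well. The limma adjusted p was 0.150 for Fcer1g and 0.482 for Fcgrt. In the ordinary model without moderation Fcer1g passed as well (adjusted p = 0.00749), which made 4 of 5.

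Among the receptors, the means of Fcgr1a and Fcgr2a ran together over the 6 time points (Pearson r = 0.979) and those of Fcgr3a and Fcgr2b ran opposite (r = -0.981). Fcgr2b ran less closely with Fcgr2a (r = 0.784) and Fcgr1a (r = 0.789). These are descriptions over 6 means of the same arrays and rats. Candidates for the genes most like each member were the 4287 or 4288 other probe sets with 1 symbol whose means spanned at least 0.5 log2 units. With so many candidates and 6 points, high values of r are easily met. For Fcgr1a they were LOC103691190 (r = 0.997), Gmip (0.993) and RGD1359108 (0.991), and for Fcgr2a the tubulin gene Tuba1c (0.998), Rin2 (0.997) and RGD1359108 (0.997). For the shared set the Fcgr2a set came first (0.999), followed by Rin2 and RGD1359108 (each 0.998). For Fcgr2b they were Prok2, which encodes prokineticin 2 (0.998), Siglec8 (0.997) and the xanthine dehydrogenase gene Xdh (0.996), all highest at 6 h. For Fcgr3a they were the Ras family gene Mras (0.999), RGD1563917 (0.998) and the transcription factor gene Tcf7l2 (0.997), all lowest at 6 h. For Fcer1g, whose means spanned 0.09, they were Gab2 (0.989), Gpsm3 (0.956) and Tnrc6b (0.951). For Fcgrt no candidate exceeded 0.798, that of Ttc30a1, followed by Pcyt1b (0.777) and Olr1722 (0.755).

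Among the genes through which the activating receptors signal, calls went in both directions. Of 28 ITAM signalling genes, 3 were higher and 9 lower at 1 h, and 10 higher and 8 lower at 2 h. By 3 h the numbers were 9 and 11, by 6 h 11 and 12, and by 24 h 2 and 9. Over the 5 times, 17.4% to 27.3% of all probe sets were higher and 13.9% to 19.3% lower. The share of higher genes in the list was below that of all probe sets at 1 and 24 h and above it at 2, 3 and 6 h. The share of lower genes was above that of all probe sets at these 5 times. Neither comparison was tested. At 3 h the 9 higher genes became 5 when each time point was centred on its median. The median change of the list stayed between -0.08 and 0.07. The largest rises were those of the guanine exchange factor gene Sos1 (0.58 ± 0.11 at 3 h, limma adjusted p = 5.83e-05), the ITAM adaptor gene Tyrobp (0.48 ± 0.09 at 6 h, adjusted p = 2.20e-05) and the Src family kinase gene Fgr (0.45 ± 0.09 at 6 h, adjusted p = 1.18e-04). The largest falls were those of the B cell linker gene Blnk (-1.77 ± 0.09 at 2 h, adjusted p = 1.22e-20), the T cell receptor zeta chain gene Cd247 (-0.97 ± 0.08 at 6 h, adjusted p = 2.39e-13) and the Src family kinase gene Fyn (-0.97 ± 0.13 at 6 h, adjusted p = 2.87e-08). These 3 genes are known from lymphocytes, and Cd247 also pairs with Fc receptors in natural killer (NK) cells.

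On the inhibitory side, 1 of 10 genes was higher and 3 were lower at 1 h. The numbers were 2 and 3 by 2 h, 4 and 4 by 3 h, 2 and 4 by 6 h, then 2 and 4 by 24 h, with a list median between -0.13 and 0.01. Beside the 1, 2, 4, 2 and 2 higher genes stood 21.7%, 21.7%, 27.3%, 22.5% and 17.4% of all probe sets, and beside the 3, 3, 4, 4 and 4 lower genes 15.4%, 18.6%, 19.2%, 19.3% and 13.9%. The largest rises were those of the adaptor gene Dok3 (0.52 ± 0.08 at 2 h, limma adjusted p = 1.24e-06), the phosphatase gene Ptpn11 (0.43 ± 0.09 at 24 h, adjusted p = 1.99e-04) and the phosphatase gene Ptpn6 (0.29 ± 0.07 at 3 h, adjusted p = 4.50e-04). Csk, whose kinase holds Src kinases inactive, fell most (-0.61 ± 0.08 at 3 h, adjusted p = 4.36e-08). Inpp5d, which encodes the phosphatase SHIP that the Fcgr2b product recruits, fell by 0.48 at 6 h (SE 0.06, adjusted p = 3.50e-09) while Fcgr2b rose. The related gene Inppl1 fell by 0.45 at 1 h (SE 0.09, adjusted p = 5.84e-05).

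The other Fc receptor genes fell or were not called, with 1 exception. Of 12 measured, 5 were lower at 1 h, 7 at both 2 and 3 h, 8 by 6 h and 5 by 24 h, and none but 1 at 6 h was higher. Of all probe sets, 15.4%, 18.6%, 19.2%, 19.3% and 13.9% were lower at these times. The list median was lowest at 6 h, at -0.62, where that of all probe sets was 0.05. The largest falls were those of the low affinity IgE receptor gene Fcer2 (-2.32 ± 0.13 at 3 h, limma adjusted p = 2.00e-19), the IgM receptor gene Fcmr (-2.19 ± 0.10 at 2 h, adjusted p = 8.33e-23) and the Fc receptor-like gene Fcrla (-2.16 ± 0.12 at 3 h, adjusted p = 4.64e-20), all genes of B cells. The exception was Fcrlb, at 0.25 ± 0.07 at 6 h (adjusted p = 0.00600). Fcer1a and Ms4a2, whose products form the high affinity IgE receptor with the Fcer1g chain, were at -0.31 and -0.83 at 6 h, both called, while the Fcer1g value was 0.04. Whether the Fcer1a signal, with a mean of 5.23 at 0 h, stood above background was not assessed. Of 17 phagocytosis effector genes, 2 were higher and 5 lower at 1 h, 7 and 3 by 2 h, 5 and 4 by 3 h, 6 and 3 by 6 h, then 4 and 6 by 24 h. Of all probe sets, 21.7%, 21.7%, 27.3%, 22.5% and 17.4% were higher and 15.4%, 18.6%, 19.2%, 19.3% and 13.9% lower at these times. Of 4 measured immunoglobulin chain genes, 2 or 3 were lower at every time and 0 higher.

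**Figure D3:**
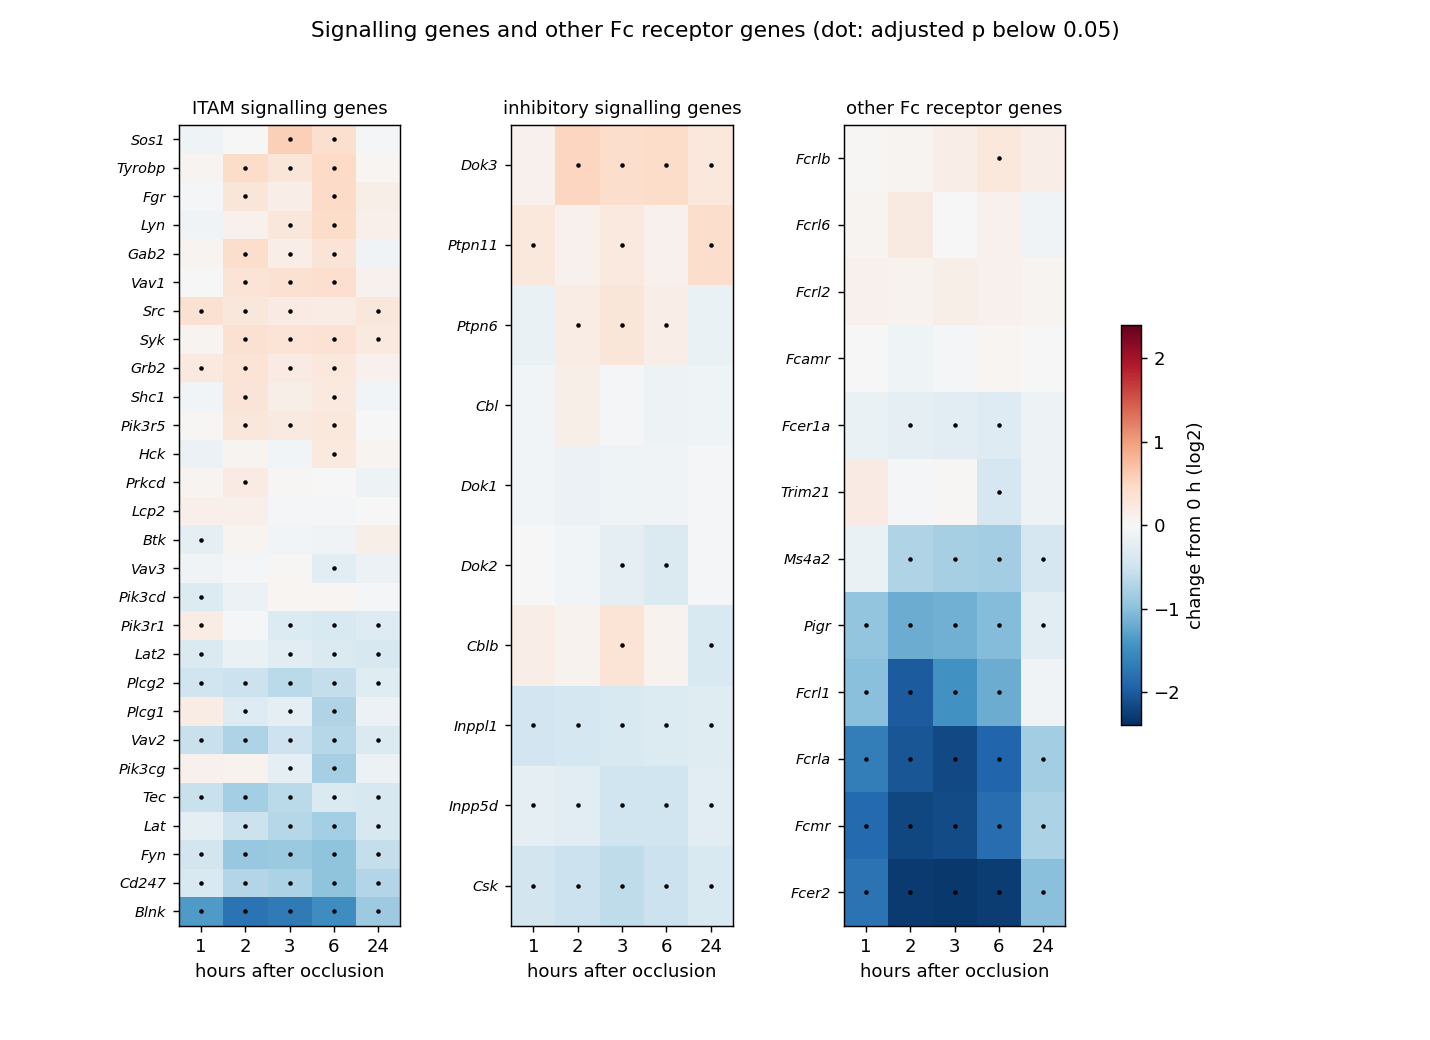
Change from 0 h on the log2 scale (color) of 28 ITAM signalling genes, 10 inhibitory signalling genes and 12 other Fc receptor genes at 1, 2, 3, 6 and 24 h, sorted by their largest change; dots mark an adjusted p below 0.05. Rises in the first 2 lists stay at or below 0.58, and the falls of Blnk, Fcer2, Fcmr, Fcrla and Fcrl1 pass -1.7.

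Markers of blood cell types moved over the same hours, and their part in the receptor changes was not tested. Their counts stand beside 17.4% to 27.3% of all probe sets higher and 13.9% to 19.3% lower over the 5 times. Of 12 neutrophil markers, 11 were higher at 1 and 2 h, 10 by 3 and 6 h, then 8 by 24 h, and 0 were lower up to 6 h. The list's mean level was 9.94 before occlusion, 10.99 to 11.40 at 1 to 6 h and 10.41 after 24 h, while the 95% intervals of Fcgr1a, Fcgr2a and Fcgr2b lay above 0 at 1 to 6 h. All 9 B cell markers were lower at 2 h, with a median change of -2.03, at a time when Fcgr2b, a receptor also of B cells, was at 0.62. All 9 T cell markers were lower at 2, 3, 6 and 24 h.

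Beside Fcgr3a, the 11 monocyte markers did not move as 1 group. At 6 h 6 were lower and 4 higher, where 19.3% of all probe sets were lower and 22.5% higher, with changes between -1.90 and 1.34. Those lower at 6 h included Adgre1 (-1.90), Cx3cr1 (-1.35) and Csf1r (-1.05), beside -1.37 for Fcgr3a, whereas Cd14 was at 1.34. These 4 genes were chosen after their values were seen. The list's mean level was 9.28 at 0 h and 8.88 to 9.03 at the later times. Of 9 NK cell markers, 6 were lower and 1 higher at 6 h, with a median of -0.62. Over the 6 means, Fcgr3a had an r above 0.9 with 5.29% of all probe sets, and with 9 of 9 T cell, 4 of 11 monocyte, 3 of 9 NK cell and 0 of 12 neutrophil markers, and with 4 of 7 basophil, mast cell and eosinophil markers. Fcgr2b had it with 5.17% of all probe sets, 4 of 12 neutrophil markers and 0 of 11 monocyte markers. Fcgr1a and Fcgr2a each had it with 4.32% of all probe sets and 7 of 12 neutrophil markers. Of 6 platelet markers 3 were higher at 1 and 24 h, 2 at 2 and 3 h and 0 at 6 h, and 0 were lower at any time. Of 7 basophil, mast cell and eosinophil markers 3 were lower at 2, 3 and 6 h and 2 at 24 h. In the same list 2 were higher at 1 and 3 h and 1 at 2 and 24 h. Of 7 erythroid markers 3 were higher at 1 h, 3 lower at 6 h and 4 higher at 24 h.

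**Figure D4:**
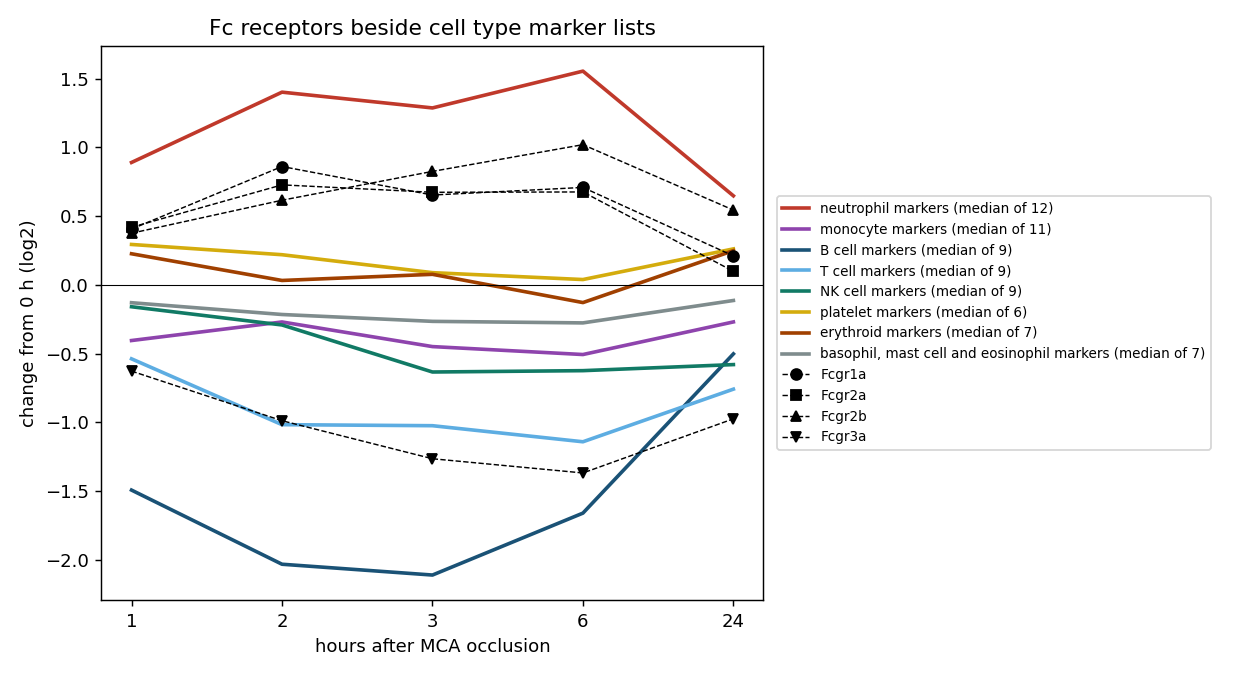
Change from 0 h on the log2 scale of 4 receptor genes (dashed black lines, symbols) and the median change of 8 cell type marker lists (colored lines) at 1, 2, 3, 6 and 24 h. The neutrophil median lies above the rising receptors up to 6 h, and Fcgr3a runs near the T cell median of -1.02 at 2 h and below the monocyte median throughout.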

How the data were processed

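Per the file headers, the authors made log2 signals from RaGene 1.0 ST arrays by RMA, with Affymetrix annotation release 36 on rn5, and deposited 1 table of 27596 probe sets with the mean and SD of the log2 signal at each time point. The sources used here do not say whether these averages and SDs are plain or outlier-resistant; they were taken as plain, and p-values are too small if they are not. A further 47 columns hold single arrays whose names match no label, and they were not used. Its fold changes, p-values, FDRs and F-tests are the authors' comparisons and were not used either.

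The planned linear model was therefore computed from the means, SDs and array numbers (41 residual degrees of freedom), moderated with limma 3.58.1 in R 4.3.3 (5.71 prior degrees of freedom), adjusted by Benjamini-Hochberg over all probe sets and tested on simulated data. Samples were grouped by the time in their labels. Precision is limited by the 7 or 8 arrays per mean. Members and gene lists were chosen with earlier results of these data known. Of 145 list genes 140 were measured, and 1 further gene of the inhibitory list is not reported here; each was taken by its probe set with the highest mean; in the ITAM, inhibitory and other Fc receptor lists the 3 largest called rises and falls were named, and for each member the 3 genes most like it. Alternatives were centring, quantile normalization of the means, an ordinary model, an intensity trend with a robust prior, a filter on the lowest 25%, the 2 compared time points alone, other probe sets of a gene and, added after the data were seen, SDs 2 times as large.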

Additional observations from a re-analysis of the deposited data

How the results depend on the processing

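Under the alternatives run, the changes of Fcgr1a, Fcgr2a, Fcgr2b and Fcgr3a kept their direction in every comparison with 0 h. No paired analysis was possible because the columns of single arrays were not matched to the rats that the labels give; the fits with the rat as a block and without each rat in turn were not run. With SDs 2 times the deposited ones, the rule probe sets called at 1 h numbered 0 higher and 0 lower, and 0 were higher at 24 h. At 24 h, 0 were higher after centring and 0 with 2 time points alone, against 2 after quantile normalization and 2 by probe sets with 1 symbol. Small changes turned sign and were not called in either case: after centring, Fcer1g to -0.042 (1 h) and -0.024 (3 h) and Fcgrt to -0.026 (6 h), and after quantile normalization Fcgrt to -0.014, -0.016 and -0.062 (1, 3 and 6 h), with Fcer1g at 0.0000 (24 h). The cause was not tested. After centring, 5 in place of 9 ITAM signalling genes were higher at 3 h. Of the inhibitory signalling genes, 0 in place of 1 were higher at 1 h, and 1 in place of 2 at 2 h and at 6 h. Other list counts also moved, and the following are examples. Lower ITAM signalling genes at 1 h numbered 11 in place of 9. Phagocytosis effector genes at 24 h numbered 3 higher and 8 lower, in place of 4 and 6. Higher platelet markers numbered 1 in place of 2 at 2 and 3 h, and higher NK cell markers 0 in place of 1 at 1 and 2 h.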
